A study of Mus musculus with 14 samples.

Results

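The transforming growth factor beta (TGF-beta) ligand, its receptors and its SMADs were followed as 10 genes, chosen by name and matched to 10 of the 33939 genes of the expression table. They were the ligand *Tgfb1*, the latent-ligand presenter *Nrros*, the receptors *Tgfbr1* and *Tgfbr2*, the signal transducers *Smad2*, *Smad3* and *Smad4*, the inhibitory *Smad7*, and the co-repressors *Skil* and *Ski*. Their values came from CD11b+ cells sorted with magnetic beads at 3 days after a controlled cortical impact to the brain (traumatic brain injury, TBI). All mice were male C57BL/6, 8 to 12 weeks old, carried Cx3cr1-CreER+/- and had received tamoxifen. Ctrl mice carried the Cre alone, and cKO mice were also homozygous for a floxed allele of the gene that the study deleted in these cells. Cells of the injured, ipsilateral (IL) and of the non-lesioned, contralateral (CL) hemispheres gave 4 CL and 4 IL libraries of Ctrl and 3 CL and 3 IL libraries of cKO mice. The 14 libraries carry the numbers of 8 mice, 6 of which gave both hemispheres. The Cre is driven by the *Cx3cr1* locus, which microglia and other myeloid cells use, and a wait of weeks followed tamoxifen so that blood monocytes could be replaced by cells without recombination. The sort took all CD11b+ cells, so each library mixes microglia with border-associated and infiltrating myeloid cells. In such bulk libraries, fewer cells of a type and less RNA per cell cannot be told apart.

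TGF-beta is secreted in a latent form, bound to its own propeptide, and on microglia and macrophages NRROS holds this latent complex at the cell surface until integrins free the ligand. The free ligand joins the type II receptor TGFBR2 with the type I receptor TGFBR1, which phosphorylates SMAD2 and SMAD3, and these enter the nucleus with SMAD4. SMAD7, itself induced by the pathway, blocks the type I receptor, while SKI and SnoN (encoded by *Skil*) repress SMAD target genes. In the brain, TGF-beta signalling is known for holding microglia in their homeostatic state.

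Values are CPM as deposited, that is reads per gene after each library was brought to a sum of 1e+06, and group values are mean ± SD. The reads behind a library ranged from 12.2 M (M for 1e+06) in the IL library of Ctrl mouse 3546 to 41.6 M, the median being 34.2 M, and the lowest value of the 10 genes in any library, *Smad3* in the IL library of Ctrl mouse 3541, rested on 613 reads. Genes were compared with limma on log2(CPM + 1) after scaling of the libraries, and called where the p adjusted by Benjamini-Hochberg was at most 0.05 and the fold change at least 1.2. Changes are log2 fold changes with their standard error (SE), on the scaled values. Summed over 4 myeloid markers with *Itgam*, which encodes CD11b, the libraries held 2862 to 3673 CPM. The 10 microglia markers summed to between 30383 and 40702 CPM in the CL and between 17307 and 20074 CPM in the IL libraries. The 10 monocyte markers summed to between 176 and 910 CPM in the CL and between 718 and 1315 CPM in the IL libraries, and the 10 neutrophil markers to between 1299 and 8385 CPM in the CL and between 850 and 1432 CPM in the IL libraries.

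The genes most abundant per exon length were *Nrros* and *Tgfbr1*. In CPM per kilobase of exon (n = 4, 4, 3 and 3 libraries for Ctrl CL and IL, then cKO CL and IL), *Tgfbr1* was at 170 ± 52.5, 80.5 ± 32.0, 178 ± 4.07 and 78.1 ± 7.88. *Nrros* was at 141 ± 12.9, 122 ± 4.64, 170 ± 11.3 and 145 ± 8.97 on the same scale. *Tgfbr1* had the higher mean in both CL groups and *Nrros* in both IL groups, and only in cKO IL did all libraries of *Nrros* lie above all of *Tgfbr1*. *Tgfbr2* and *Ski* followed, at 51.9 to 82.9 CPM per kilobase in the group means, with overlapping ranges in each group. *Skil* came next with group means of 31.0 to 44.4, and *Tgfb1* had 26.5 to 33.6. *Smad4* had 18.8 to 24.7, and *Smad7* had 14.2 and 16.1 in the Ctrl groups but 24.3 and 39.7 in the cKO groups, where it stood above *Smad4* without overlap. *Smad2* and *Smad3* had the lowest means in every group, between 5.62 and 8.18 CPM per kilobase, and their ranges overlapped throughout. In the Ctrl groups the range of *Smad3* also reached that of *Smad7*. The mRNAs of the receptors and of the co-repressors thus exceeded those of the receptor-regulated SMADs per length in every group.

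**Figure D1:**
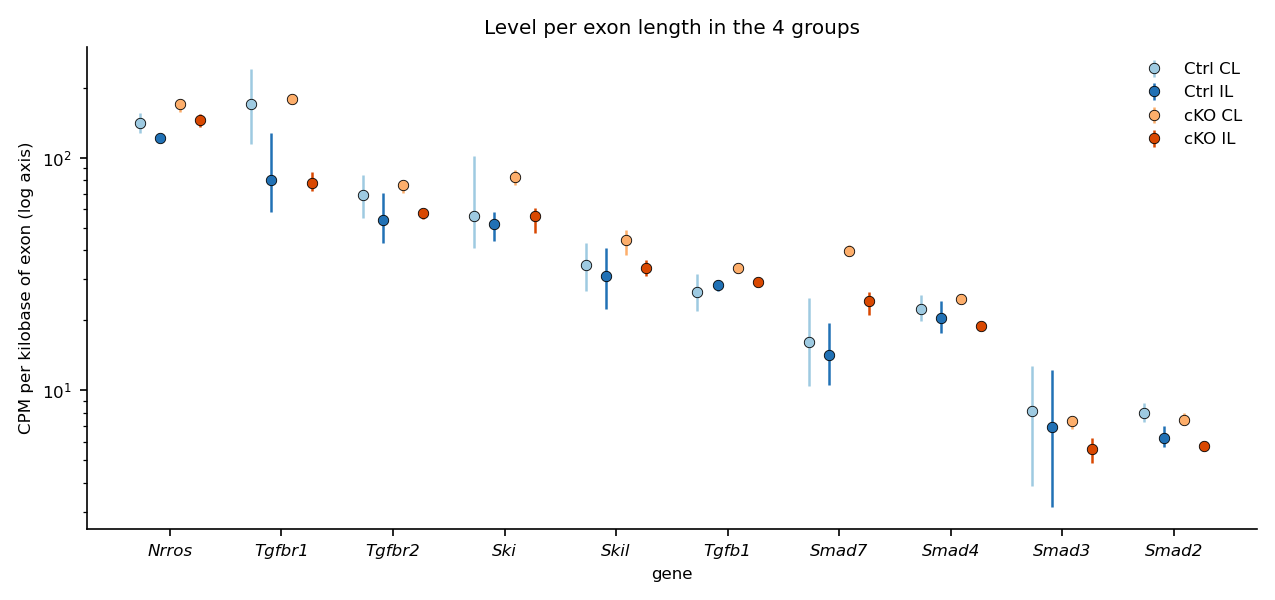
Level of the 10 genes in CPM per kilobase of exon (log axis). Points are group means, bars reach from the lowest to the highest library of the group, and genes stand in the order of their mean over the groups. *Nrros* and *Tgfbr1* lead, *Smad2* and *Smad3* are lowest at 5.62 to 8.18, and *Tgfbr1* (80.5 against 170 in Ctrl) and *Smad7* (39.7 in cKO CL against 16.1 in Ctrl CL) part most between groups.

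Of the 10 genes, the largest difference between the hemispheres was that of *Tgfbr1*, whose protein carries the kinase activity toward SMAD2 and SMAD3. For reference, 2 windows around start sites of this gene are shown from RefSeq (GRCm38.p6), each from 250 bases before to 50 after the start, on the plus strand. The letters CAGACA, a form of the SMAD box, were searched on both strands and are in capitals.

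Tgfbr1 upstream start, chr4:47352972-47353271: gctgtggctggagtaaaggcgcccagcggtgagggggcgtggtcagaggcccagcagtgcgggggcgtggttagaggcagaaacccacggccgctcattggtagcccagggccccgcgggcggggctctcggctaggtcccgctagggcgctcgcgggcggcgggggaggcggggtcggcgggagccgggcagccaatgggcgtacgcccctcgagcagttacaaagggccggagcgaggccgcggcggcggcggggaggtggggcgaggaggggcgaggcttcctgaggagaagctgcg

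Tgfbr1 downstream start, chr4:47385966-47386265: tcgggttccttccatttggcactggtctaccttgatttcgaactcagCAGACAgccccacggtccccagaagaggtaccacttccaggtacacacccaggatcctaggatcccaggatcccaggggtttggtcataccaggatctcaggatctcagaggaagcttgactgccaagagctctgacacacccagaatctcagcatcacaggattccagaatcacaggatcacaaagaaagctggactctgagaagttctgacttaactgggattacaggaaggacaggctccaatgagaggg

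The upstream window, at the 5′ end of the gene (chr4:47353222-47414931 in GENCODE M21), was 74.7% G and C and held no such box. The downstream window, inside the gene, was 52.0% G and C and held a box that starts 203 bases before the start site. Of 32851 windows of this length, 6913 held the box, and of 7 windows of the 6 genes searched (*Tgfb1*, *Nrros*, *Tgfbr1*, *Tgfbr2*, *Smad3* and *Ski*) this was the only window that did. The gene table does not tell from which start the reads came.

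The first question was how these genes differed between the hemispheres of injured mice within a genotype. No library of uninjured mice was analysed here, so CL is the other hemisphere of an injured brain and not an uninjured control. In Ctrl mice, *Tgfbr1* was the only one of the 10 called between the hemispheres, lower in IL, where 6.65% of the 16376 genes tested were called and 2.97% were called lower. Its CL libraries had 747, 1033, 1573 and 1080 CPM in mice 3541, 3545, 3546 and 3551, and the IL libraries of the same mice had 381, 431, 836 and 456 CPM. The IL value was 0.417 to 0.532 of the CL value in each of the 4 mice, although the groups overlapped because the IL library of mouse 3546 lay above the CL library of mouse 3541. The log2 fold change was -1.02 ± 0.23 (SE, adjusted p = 0.0304). With the mouse as a block the SE fell to 0.098 and the adjusted p to 0.000847, while the share of all genes called rose to 20.5%. Without the shallow IL library of mouse 3546 the change was -1.21 (adjusted p = 0.00685), but leaving out any of 6 of the other 7 libraries took the adjusted p above the threshold, to between 0.0525 and 0.0969. It was above it as well with upper-quartile scaling (0.0549) and without a filter on low values (0.0847).

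In cKO mice the fall of *Tgfbr1* was of like size. It had 1151, 1150 and 1197 CPM in the CL libraries of mice 788, 791 and 3592 and 472, 489 and 569 CPM in the IL libraries of mice 784, 791 and 3592. The groups did not overlap, as 42.4% of the genes tested lay apart in either direction, and the log2 fold change was -1.11 ± 0.11 (SE, adjusted p = 0.00181), called under each of the 19 settings tried. In mice 791 and 3592, which gave both hemispheres, IL was 0.426 and 0.475 of CL. The difference between the genotypes in this change, tested as an interaction over all 14 libraries, was -0.09, with a 95% confidence interval from -0.70 to 0.51. The microglia markers were also lower in IL: 7 of 10 of these were called lower in Ctrl and 6 of 10 in cKO, with medians of -1.02 and -0.92 on the log2 scale, against 2.97% and 9.56% of all genes called lower. Within Ctrl IL, *Tgfbr1* did not follow their sum. The library of mouse 3546 had 836 CPM of *Tgfbr1* against 381 to 456 CPM in the others. Its microglia sum was 18608 CPM, beside 18508 to 20045 CPM in the others. Some other markers were lower in IL as well. All 10 neutrophil markers had lower estimates in IL in both genotypes, with medians of -2.71 in Ctrl (none called, 7 at an unadjusted p under 0.05) and -1.29 in cKO (6 called), and their sums in IL were 876 to 1432 CPM (Ctrl) and 850 to 1085 CPM (cKO), beside sums in CL of 1381 to 8385 CPM (Ctrl) and 1299 to 2337 CPM (cKO). A fit paired by mouse, as a fixed block, called 8 of the 10 neutrophil markers lower in Ctrl and 7 in cKO. Over all genes it called 10.7% and 4.94% lower. Without the block, 2 of 3 T and NK cell markers tested were called lower in Ctrl, and in cKO none was. Of the 8 border-associated macrophage markers, 2 were called lower and 1 higher in Ctrl, and 1 lower and 1 higher in cKO. Their medians were -0.90 and -0.09. With the mouse as a block, 4 were lower and 1 higher in Ctrl, and 2 lower and 3 higher in cKO. Their sums had medians of 536 CPM (CL) and 549 CPM (IL) in Ctrl, and 310 and 398 CPM in cKO. By contrast, 4 of 10 monocyte markers were called higher in IL in each genotype, against 3.68% and 12.8% of all genes. The part of cell composition in the fall of *Tgfbr1* was not tested. Over the 14 libraries, the genes most like *Tgfbr1* in their log2 values were *Gprasp1*, *Ivns1abp* and *Arhgap5* (Pearson's r of 0.979, 0.971 and 0.971, as a description of libraries that share the hemisphere difference).

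*Tgfbr2*, which binds the ligand first, differed less. In Ctrl it had 451, 461, 663 and 689 CPM in CL and 356, 353, 577 and 478 CPM in IL, in the order of mice above. Each mouse had less in IL, at 0.694 to 0.870 of CL, yet the groups overlapped and the log2 fold change of -0.29 ± 0.15 (SE, adjusted p = 0.311) was not called, nor with the mouse as a block (adjusted p = 0.0509). With mouse as random effect the adjusted p was 0.0284, but the change of -0.26 fell short of 1.2-fold. In cKO it had 650, 643 and 579 CPM in CL and 483, 448 and 495 CPM in IL, with a change of -0.31 ± 0.11 (SE, adjusted p = 0.0792). The ratio of the receptors, *Tgfbr1* over *Tgfbr2* per exon length, was 1.96 to 2.97 in Ctrl CL and 2.22 to 2.59 in cKO CL, and 1.19 to 1.82 and 1.22 to 1.44 in the IL groups. It was therefore lower in every IL library than in every CL library, with no test of the ratio itself. The genes most like *Tgfbr2* over the 14 libraries were *Smad5*, *Nav3* and *Mef2c* (r of 0.970, 0.969 and 0.961).

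The ligand did not differ detectably between the hemispheres. *Tgfb1* had 132, 133, 159 and 111 CPM in Ctrl CL and 146, 141, 150 and 134 CPM in Ctrl IL, a log2 fold change of 0.18 ± 0.17 (SE, adjusted p = 0.635). In cKO it had 170, 162 and 177 CPM in CL and 152, 149 and 141 CPM in IL, a change of -0.12 or 0.922-fold (adjusted p = 0.443). The other ligands of the pathway, *Tgfb2* and *Tgfb3*, had group means of 1.83 to 3.38 and of 0.736 to 1.29 CPM and were called in no comparison. *Nrros* had 620, 554, 648 and 534 CPM in Ctrl CL against 530, 495, 522 and 490 CPM in Ctrl IL, with every IL library below every CL library as deposited, as 17.7% of the genes tested lay apart in either direction. After scaling its log2 fold change was -0.13 ± 0.16 (SE, adjusted p = 0.737). In cKO, *Nrros* had 727, 655 and 744 CPM in CL and 615, 641 and 567 CPM in IL, with a change of -0.14 ± 0.13 (SE, adjusted p = 0.494). *Tgfb1* and *Nrros* varied together over the 14 libraries (r = 0.769), and the genes most like *Nrros* were *Pld4*, *Comtd1* and *Irf8* (r of 0.930, 0.884 and 0.873). Those most like *Tgfb1* were *Slain2*, *Rest* and *Ppp1r18* (r of 0.917, 0.897 and 0.886).

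**Figure D2:**
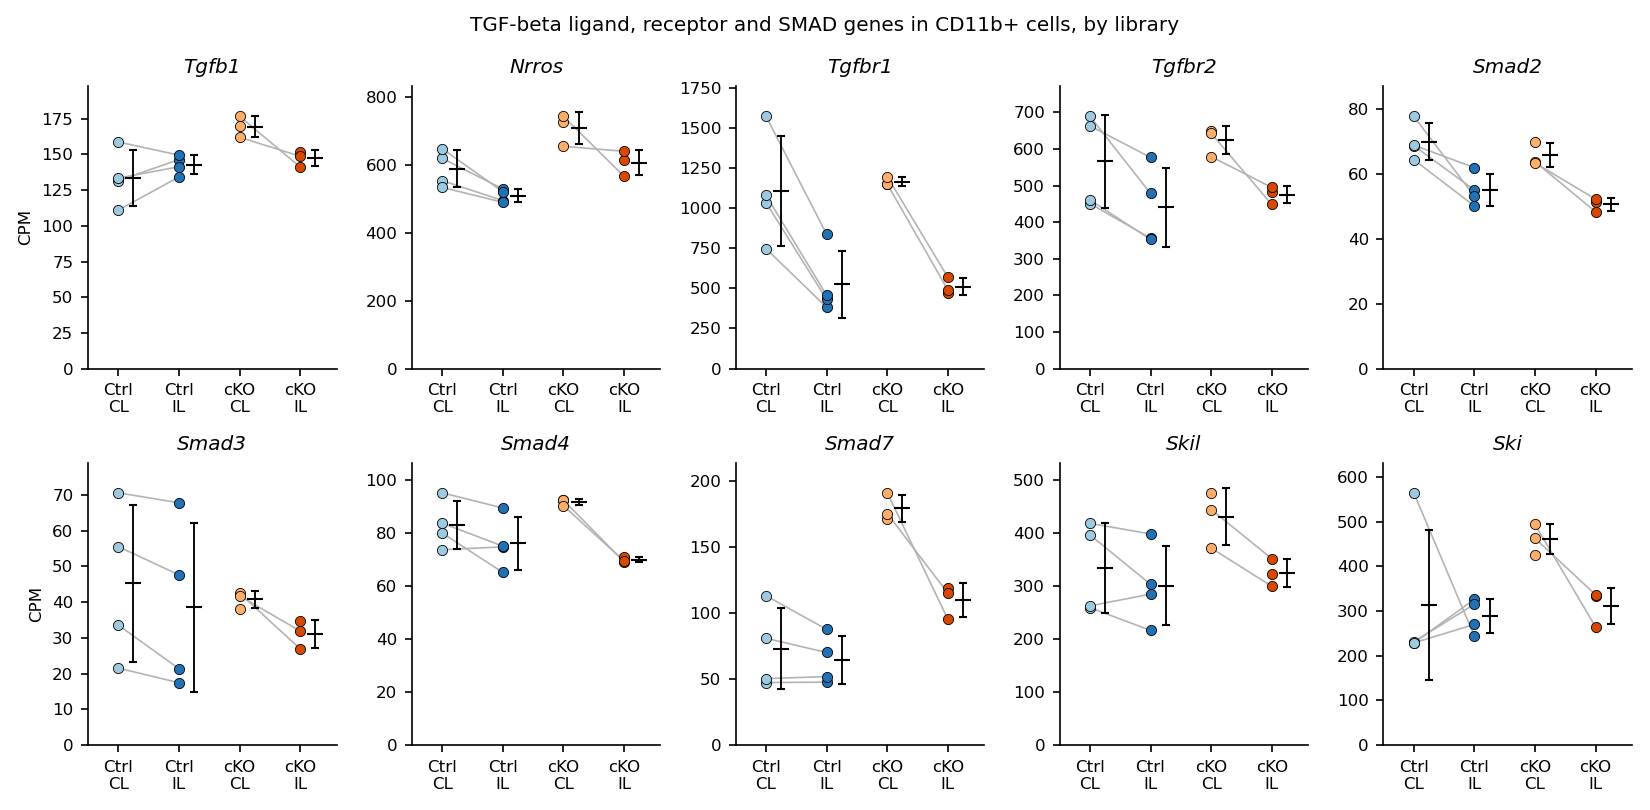
CPM of each gene in each library, from 0. Points are libraries, grey lines join the hemispheres of the same mouse, and the bar beside each group is its mean ± SD. *Tgfbr1* falls from CL to IL along every line, to 0.417 to 0.532 of CL in Ctrl, *Smad7* is higher in every cKO than in every Ctrl library of the same hemisphere, and *Smad3* parts the Ctrl mice.

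Among the signal transducers, *Smad4* fell in IL in cKO mice, while *Smad2* and *Smad3* were not called. In cKO, *Smad4* had 92.5, 92.5 and 90.4 CPM in CL and 71.0, 69.2 and 69.5 CPM in IL, without overlap, a split that 42.4% of the genes tested showed. Its log2 fold change was -0.31 ± 0.091 (SE, adjusted p = 0.0441), called in 9 of 19 settings. With the mouse as a block it was not called (adjusted p = 0.174), and with mouse as random effect it was (adjusted p = 0.0378). In Ctrl, *Smad4* had 80.1, 73.8, 95.3 and 83.8 CPM in CL and 65.2, 74.8, 89.5 and 75.1 CPM in IL, with a change of -0.06 ± 0.13 (SE). *Smad2* had 64.4 to 77.8 CPM in Ctrl CL against 50.1 to 61.9 CPM in Ctrl IL, and 63.4 to 70.0 against 48.3 to 52.2 CPM in cKO. Its CL and IL libraries did not overlap in either genotype, as 17.7% (Ctrl) and 42.4% (cKO) of the genes tested lay apart, and its changes were -0.27 ± 0.17 (SE, adjusted p = 0.419) in Ctrl and -0.29 ± 0.097 (SE, adjusted p = 0.0689) in cKO. *Smad3* had changes of -0.23 ± 0.38 (SE, adjusted p = 0.821) and -0.30 ± 0.11 (SE, adjusted p = 0.0795).

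The spread of *Smad3* in Ctrl lay between mice. It had 21.5, 33.6, 70.6 and 55.6 CPM in the CL libraries of mice 3541, 3545, 3546 and 3551, and 17.4, 21.4, 67.8 and 47.6 CPM in their IL libraries. Mice 3546 and 3551 were thus above mice 3541 and 3545 in both hemispheres. The cKO libraries lay in between, at 38.0, 42.5 and 41.8 CPM in CL and 34.6, 26.9 and 31.9 CPM in IL. As *Smad2* varied little, the ratio of *Smad2* to *Smad3* per exon length was 2.01, 1.46, 0.616 and 0.731 in the Ctrl CL libraries and 1.99, 1.57, 0.576 and 0.664 in the Ctrl IL libraries. In the cKO libraries it was 0.937 to 1.16. *Tgfbr1*, *Tgfbr2*, *Smad4*, *Smad7* and *Skil* were also higher in mice 3546 and 3551 than in the other Ctrl mice in both hemispheres. The IL library of mouse 3546 and the CL library of mouse 3551 were the shallowest of the series, at 12.2 and 16.1 M reads, while the other libraries of these mice had 28.3 and 34.2 M. The part of depth in this split was not tested. The genes most like *Smad3* over the 14 libraries were *Pick1*, *Ing5* and *Plcg1* (r of 0.937, 0.933 and 0.930), those most like *Smad2* were *Zfp410*, *Orc5* and *Rbm22* (0.971, 0.967 and 0.965), and those most like *Smad4* were *Hsf1*, *Card6* and *Kdm5b* (0.871, 0.862 and 0.858).

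Of the inhibitors, *Smad7* and *Ski* fell from CL to IL in cKO mice, and none was called in Ctrl. *Smad7* had 171, 176 and 191 CPM in cKO CL and 119, 115 and 95.4 CPM in cKO IL. This was a change of -0.62 ± 0.13 (log2, SE, adjusted p = 0.0133). In Ctrl it had 47.4, 50.4, 113 and 80.9 CPM in CL and 47.7, 51.9, 87.7 and 70.2 CPM in IL, a change of -0.06 ± 0.23 (SE, adjusted p = 0.941). The interaction for *Smad7* was -0.57 ± 0.30 (SE, limma, unadjusted p = 0.0741, not called). *Ski* had 427, 463 and 494 CPM in cKO CL and 333, 336 and 264 CPM in cKO IL, a change of -0.49 ± 0.15 (SE, adjusted p = 0.0465) that was called in 8 of 19 settings and not with the mouse as a block (adjusted p = 0.0642) or as random effect (0.224). In Ctrl, *Ski* had 228, 231, 565 and 229 CPM in CL and 326, 315, 244 and 270 CPM in IL. The CL library of mouse 3546 thus stood far above the other CL libraries, and the IL library of the same mouse was the lowest of its group. *Skil* had changes of -0.08 ± 0.16 (SE, adjusted p = 0.874) in Ctrl and -0.32 ± 0.15 (SE, adjusted p = 0.166) in cKO.

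In all, 4 of the 10 genes were called lower in IL in cKO, where 22.3% of the 16758 genes tested were called and 9.56% were called lower. With the mouse as a block, 2 of the 10 (*Tgfbr1* and *Smad7*) and 13.8% of all genes were called. With mouse as random effect these were 3 of the 10 (*Smad4* in addition) and 19.7% of all genes. As deposited, the CPM of all 10 genes lay lower in every cKO IL than in every cKO CL library, as those of 42.4% of the genes tested lay apart in either direction. Without further scaling of the libraries 8 of the 10 were called, as were 22.6% of all genes. In that setting 1647 of the 3793 genes called were higher, against 2139 of 3741 with scaling, so that more genes were lower. The median log2 fold change of the 10 was -0.31 in cKO and -0.10 in Ctrl, against 0.02 and -0.04 over all genes tested. The summed level of 10 immediate-early and heat-shock genes, which respond to tissue dissociation, fell alongside, from 31326 to 43186 CPM in cKO CL to 21353 to 24588 CPM in cKO IL. In Ctrl it was 28039 to 36230 CPM in CL and 20098 to 22684 CPM in IL. The part of the dissociation response in these differences was not tested.

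**Figure D3:**
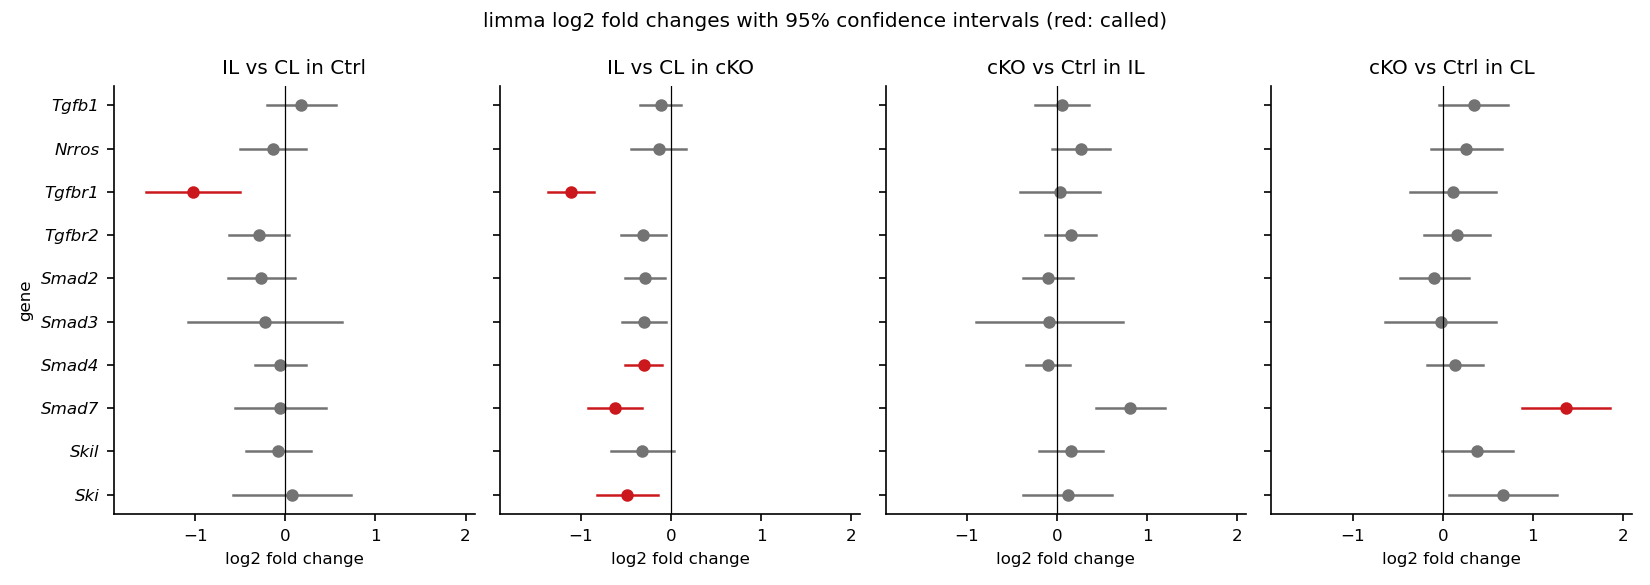
Log2 fold changes of the 10 genes in the 4 comparisons, as limma estimates with 95% confidence intervals, on the scaled log2(CPM + 1) values. Genes called at an adjusted p at or under 0.05 with a fold change of at least 1.2 are red. *Tgfbr1* is called lower in IL in Ctrl (-1.02) and cKO (-1.11), *Smad4*, *Smad7* and *Ski* only in the cKO panel, and *Smad7* is called higher in cKO in CL (1.37).

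The second question was what the deletion changed within a hemisphere. *Smad7*, the feedback inhibitor of the type I receptor, was the only one of the 10 called between the genotypes, higher in cKO in the CL hemispheres, where 0.873% of the 16603 genes tested were called and 0.464% were called higher. The 3 cKO CL libraries, at 171 to 191 CPM, all lay above the 4 Ctrl CL libraries, at 47.4 to 113 CPM. Of the genes tested, 9.99% lay apart in either direction. The log2 fold change was 1.37 ± 0.22 (SE, adjusted p = 0.0150), or 2.58-fold. The call was lost without further scaling (adjusted p = 0.0724), without a filter on low values (0.0593), and without the Ctrl library of mouse 3545 (0.0601) or any of the cKO libraries (0.0530 to 0.0761), and the change ranged from 1.25 to 1.57 when each library was left out. No other gene within 5 Mb of *Smad7* was called between the genotypes, of 42 tested in CL and 44 in IL.

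In the IL hemispheres none of the 10 was called by limma, where 0.656% of the 16919 genes tested were, and 1 of the 10 had an unadjusted p under 0.05, against 8.95% of all genes. That gene was again *Smad7*, with 95.4 to 119 CPM in the cKO against 47.7 to 87.7 CPM in the Ctrl libraries, without overlap, as 10.3% of the genes tested lay apart, and a log2 fold change of 0.81 ± 0.17 (SE, adjusted p = 0.106). Leaving out the IL library of Ctrl mouse 3546 gave 0.91 (adjusted p = 0.0131), while leaving out any of the other 6 libraries gave 0.72 to 0.96 (adjusted p from 0.0760 to 0.479), and the adjusted p was 0.0703 when all 14 libraries were fitted with mouse as random effect. The genes most like *Smad7* over the 14 libraries were *Adgrl2*, *Atf7ip* and *Egr2* (r of 0.961, 0.947 and 0.918), and among the 10 genes it was most like *Skil* (r = 0.813). *Egr2* belongs to the immediate-early genes. The summed dissociation-response genes had 28039 to 36230 CPM in Ctrl CL and 31326 to 43186 CPM in cKO CL, with overlap. In CL, 7 of these 10 genes had higher estimates in cKO, with a median log2 fold change of 0.30, and none was called by limma. Of them 5 had an unadjusted p under 0.05, against 9.78% of all genes in CL. With mouse as random effect 3 were called, 1 higher and 2 lower in cKO, against 1.75% of all genes. In IL they had 20098 to 22684 CPM in Ctrl and 21353 to 24588 CPM in cKO, with overlap, none called by limma, 5 at an unadjusted p under 0.05 and 1 called, lower in cKO, with mouse as random effect, against 8.95% and 1.11% of all genes in IL. The neutrophil markers had 1381 to 8385 CPM in Ctrl CL and 1299 to 2337 CPM in cKO CL, also with overlap and none of the 10 called, with 3 at an unadjusted p under 0.05 and a median log2 fold change of -1.33. The 10 infiltrating monocyte markers had 304 to 910 CPM and 176 to 496 CPM, with overlap, a median of -0.76, none called and 1 at such a p, and the 6 endothelial markers had 87.6 to 172 CPM and 73.8 to 121 CPM, with overlap, a median of -0.47, none called and 2 at such a p. In cKO CL against Ctrl CL, the 6 oligodendrocyte markers summed to 176 to 215 CPM against 220 to 310 CPM and the 4 B cell markers to 24.7 to 25.7 CPM against 28.9 to 43.4 CPM, both without overlap. Of the oligodendrocyte markers 1 was called and 4 had an unadjusted p under 0.05, with a median log2 fold change of -0.75. The 8 border-associated macrophage markers summed to 203 to 530 CPM against 345 to 764 CPM, with overlap, and none was called by limma or with mouse as random effect, while 4 had an unadjusted p under 0.05, with a median of -0.83. The medians were -0.57 over 3 T and NK cell markers tested (2 at an unadjusted p under 0.05), -0.16 over the B cell, -0.15 over the astrocyte, 0.29 over the neuron and -0.04 over the microglia markers, with none of these called by limma. The part of all these markers in the difference in *Smad7* was not tested.

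Neither co-repressor was called between the genotypes, and the libraries overlapped for both in CL. *Ski* was at 427 to 494 CPM in cKO CL, above 3 Ctrl CL libraries and below the 565 CPM of mouse 3546, with a log2 fold change of 0.67 ± 0.27 (SE, adjusted p = 0.432). Without that library it was 0.95 (adjusted p = 0.0274), and without any of the other 6 it was 0.52 to 0.70 (adjusted p from 0.524 to 0.835). *Skil* had 476, 444 and 372 CPM in cKO CL and 259, 262, 418 and 396 CPM in Ctrl CL, a change of 0.39 ± 0.18 (SE, adjusted p = 0.526). In IL, *Skil* had 323, 352 and 300 CPM in cKO and 216, 285, 398 and 303 CPM in Ctrl. *Skil* was most like *Scaf8*, *Creb3l2* and *Rel* over the 14 libraries (r of 0.935, 0.933 and 0.916), and *Ski* was most like *Sp2*, *Git1* and *Fbxw5* (0.851, 0.850 and 0.818).

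For the ligand side, the cKO CL libraries lay above all Ctrl CL libraries in *Tgfb1* and *Nrros*, as 9.99% of the genes tested lay apart in this comparison. Their log2 fold changes were 0.34 ± 0.17 (SE, adjusted p = 0.571) and 0.26 ± 0.18 (SE, adjusted p = 0.689), and neither was called. In IL, *Nrros* lay apart as well, as did 10.3% of the genes tested there, with a change of 0.27 ± 0.14 (SE, adjusted p = 0.669). For the receptors the genotype difference was 0.12 for *Tgfbr1* in CL (95% confidence interval from -0.36 to 0.59) and 0.04 in IL (from -0.41 to 0.48), and 0.16 and 0.15 for *Tgfbr2*. The estimates for *Smad2*, *Smad3* and *Smad4* ran from -0.10 to 0.14, with adjusted p from 0.785 to 0.985. Of the interaction, none of the 18476 genes was called by limma, with 478 (2.59%) at an unadjusted p under 0.05, of which none of the 10, and 3 genes (0.0162%) were called with mouse as random effect, again none of the 10. For *Smad4* and *Ski*, called between the hemispheres in cKO alone, the interaction was -0.25 ± 0.15 and -0.56 ± 0.38 (SE, limma, unadjusted p = 0.105 and 0.157). All 10 estimates were negative, with a median of -0.17 against 0.04 over all genes, and were not tested as a set. A difference between the genotypes in the change of any single one of the 10 genes from CL to IL was thus not detectable with these libraries.

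The other genes of the pathway were taken from 5 lists. Their called changes lay mainly between the hemispheres, as did those of all genes, of which 6.65% (Ctrl) and 22.3% (cKO) were called between hemispheres and 0.656% (IL) and 0.873% (CL) between genotypes. By direction, 3.68% rose and 2.97% fell in IL in Ctrl, and 12.8% rose and 9.56% fell in cKO. Of 16 ligand and latent-ligand activation genes tested, 3 rose in IL in Ctrl and 3 rose and 1 fell in cKO. Thrombospondin 1 (*Thbs1*), which frees the latent ligand, rose by a log2 fold change of 4.74 ± 0.31 in Ctrl and 2.50 ± 0.53 (SE) in cKO. *Mmp14*, a membrane-bound protease, rose by 2.13 in Ctrl and 1.03 in cKO, and *Furin*, which cleaves the TGF-beta precursor, by 1.28 and 1.10. The integrin subunit *Itgav* fell in cKO, with a log2 fold change of -0.47, a call that was lost with the mouse as a block. The adjusted p of these genes lay between 0.000109 and 0.0285.

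Of 10 further receptors tested, 2 fell in Ctrl and 4 in cKO. The activin receptor *Acvr2b* fell by 1.05 in Ctrl and by 1.32 in cKO on the log2 scale, *Acvr2a* fell by 0.81 in Ctrl, and the co-receptor endoglin (*Eng*) fell by 0.76 in cKO. Among 25 other SMADs, SMAD partners and regulators, 1 rose and 2 fell in Ctrl and 5 fell in cKO, where 9.56% of all genes were called lower. In Ctrl, the co-repressor *Tgif1* rose by 0.55, its paralog *Tgif2* fell by 0.81, and *Smad1*, which serves BMP signals, fell by 0.61. In cKO, *Tgif2* fell by 0.999 and the ubiquitin ligase *Smurf1* fell by 0.55.

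Of 16 target genes of the pathway in many cell types, 4 rose in Ctrl and 7 rose and 1 fell in cKO. Fibronectin (*Fn1*) rose by 4.02 ± 0.28 and 3.42 ± 0.49 (SE, log2 scale) and *Vegfa* by 3.01 and 2.46, and *Itgae* fell by 0.90 in cKO. *Fn1* is also among the 10 monocyte markers, of which 4 were called higher in IL in each genotype, and their part in its rise was not tested. Of 19 microglia genes known to depend on TGF-beta, 1 rose and 11 fell in each genotype, with medians of -0.78 and -0.79 on the log2 scale. *P2ry13* fell by 1.49 and 1.34 and *P2ry12*, a purinergic receptor of resting microglia, by 1.37 and 1.36 in Ctrl and cKO, while *Gas6*, a ligand of phagocytic receptors, rose by 0.86 and 0.68. *Tgfbr1* is itself on this list and among the 11, and 9 of the list are also microglia markers above. With the mouse as a block, the genes called in the 5 lists, in the order given, were 4, 5, 6, 7 and 15 in Ctrl and 3, 3, 3, 11 and 13 in cKO, beside 20.5% and 13.8% of all genes.

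Between the genotypes, 1 gene of all these lists was called, the microglia gene *Olfml3*, lower in cKO in IL, with a log2 fold change of -1.14 ± 0.18 (SE, adjusted p = 0.0357). In CL its change was -1.11 ± 0.27 (SE, adjusted p = 0.112, and 0.0120 with mouse as random effect). None of the ligand, receptor, SMAD-partner and target genes was called between the genotypes by limma in either hemisphere. At an unadjusted p under 0.05 there were 2, 1, 1 and 3 of them in IL and 2, 2, 4 and 5 in CL, out of 16, 10, 25 and 16 tested, against 8.95% and 9.78% of all genes. With mouse as random effect *Mmp14* was called, higher in cKO in CL (adjusted p = 0.00446, against 0.0502 without the mouse).

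**Figure D4:**
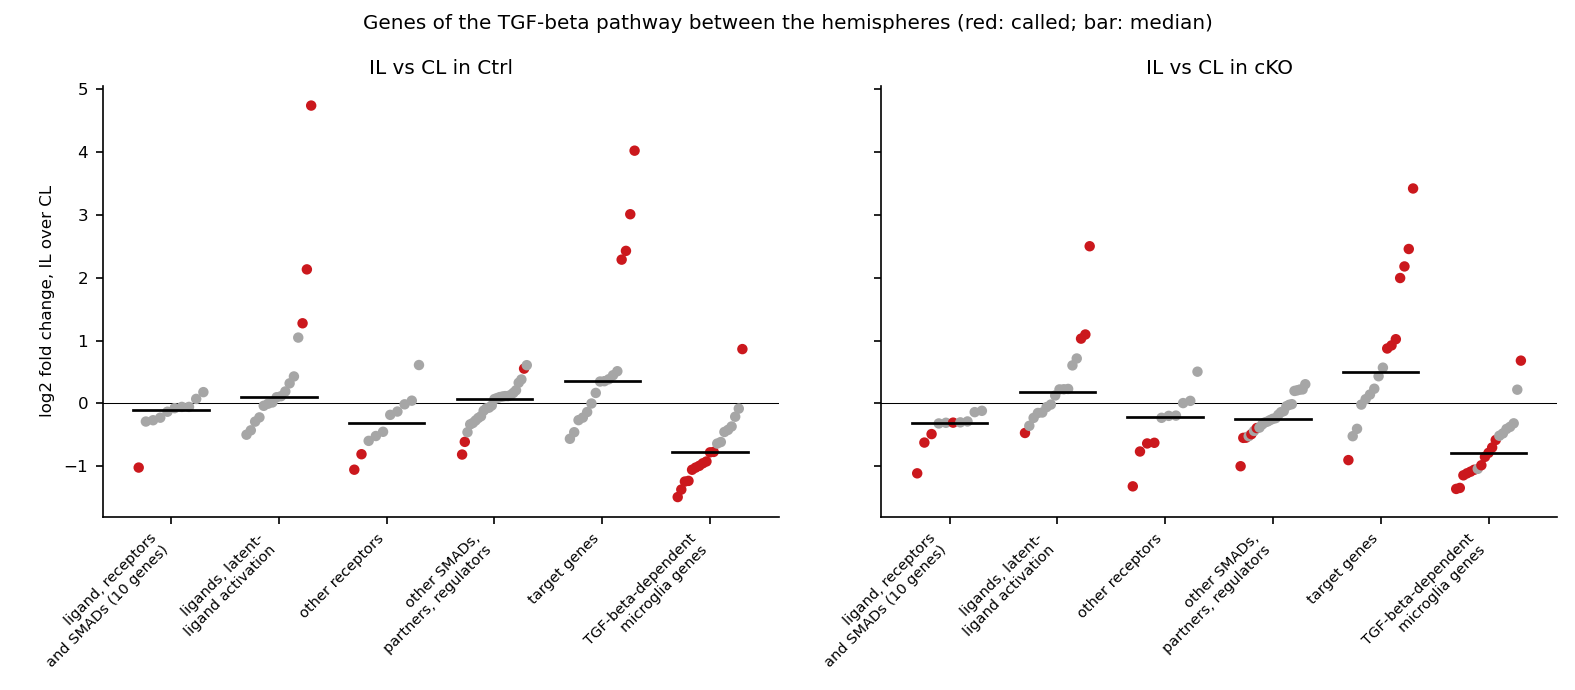
Log2 fold changes of IL over CL in Ctrl (left) and cKO (right) for the 10 genes and for 5 lists of the same pathway. Each point is a gene, red where called, and the bar is the list's median. Of the 10 genes, only *Tgfbr1* is red in Ctrl (-1.02), while 4 are red in cKO (-0.31 to -1.11). *Thbs1* (4.74) and *Fn1* (4.02) stand highest in Ctrl, and the microglia genes lie mostly below 0 (medians -0.78 and -0.79).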

How the data were processed

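CD11b+ cells were sorted from 14 hemispheres and sequenced from Smart Seq v4 libraries. The authors mapped reads with STAR to mm10 and summarised them per Ensembl gene in Partek 8.0, per the labels. The authors deposited a table named raw counts, but each library sums to 1e+06, so the deposited values were read as CPM. Of the values under 100 reads, 78.2% to 83.2% per library were whole multiples of a single step (tolerance 0.03), which gave the reads per library. As the remaining values were not whole, no test on counts was run. The authors' tables of cKO against Ctrl hold p-values, FDR, ratios, fold changes and group means of their own comparisons and were not used.

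Libraries were scaled by an unweighted trimmed mean of M-values (30% of M and 5% of A trimmed). A gene was tested if its CPM was worth 10 reads at median depth in at least n libraries, n being the size of the smaller group, and 15 reads over all libraries. All 10 genes passed in each comparison. limma 3.58.1 (R 4.3.3) with a variance trend was fitted to log2(CPM + 1) of the libraries compared, which understates changes of low genes. p values were adjusted over all genes tested. Interactions used all 14 libraries. Group assignment and mouse numbers came from the labels, which do not say whether mice 784 and 788 differ, and they were taken as different.

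Same-numbered libraries are hemispheres of the same animal. Their deviations from the group means correlated at 0.182 to 0.607 in 6 mice, against -0.535 to 0.502 (median -0.215) for 19 other pairs. Values with the mouse as a block stand beside some, not all, of the results they change.

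Exon lengths came from GENCODE M21 (GRCm38), which held 33802 of the 33939 genes. No exon of the 10 genes overlapped that of another gene of the table, and blastn 2.17.0 found no transcript of another gene that matched 1 of the 10 over at least 200 bases at 90% identity. Promoter windows came from RefSeq. The genes most like each member were the 3 with the highest Pearson correlation among 9754 genes with a mean of at least 3 on the log2 scale. From each pathway list, up to 2 higher and 2 lower called genes of largest change per comparison were named, with *Tgfb2* and *Tgfb3* always. The members, the lists and these rules were chosen with earlier results of these data known. The targeted gene is not reported here. Scripts were tested on simulated data. Python 3.11.15, numpy 2.4.6, pandas 2.3.3 and matplotlib 3.10.9 did the remaining steps.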

Additional observations from a re-analysis of the deposited data

Results flagged for a closer look

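In 2 of the 20 sets of 4 Ctrl libraries (10 genes in CL and in IL), the highest library lay far from the others by Dixon's criterion at the 95% level, which chance passes in about 1 of 20 groups. Both libraries were of Ctrl mouse 3546. *Tgfbr1* had 836 CPM in its IL library, the other Ctrl IL libraries holding 381 to 456 CPM, and this library was the shallowest of the series. *Ski* had 565 CPM in its CL library, against 228 to 231 CPM in the other Ctrl CL libraries. Without these libraries, the log2 fold change of *Tgfbr1* between IL and CL in Ctrl was -1.21 (limma adjusted p = 0.00685) and that of *Ski* between cKO and Ctrl in CL was 0.95 (adjusted p = 0.0274). Groups of 3 libraries were not examined in this way.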

How the results depend on the processing

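With 3 or 4 libraries per group, calls near the threshold moved. In Ctrl, the count of the 10 genes called between IL and CL (1) was 0 with upper-quartile scaling and without a filter (6.94% and 1.70% of all genes called, against 6.65%), and 0 to 1 when each library was left out (2.83% to 8.54%). In cKO the count (4) was 8 without further scaling (22.6% of all genes, against 22.3%, with 1647 against 2139 genes called higher). It was 2 without a filter (7.93%), 1 when all 14 libraries shared a fit (9.10%), 2 with the mouse as a replicate block (13.8%), 1 at a fold change of at least 2 (4.91%), and 2 whichever library was left out (10.9% to 20.1%), so the share of all genes fell in these settings as well. Between the genotypes in CL the count (1) was 0 without further scaling and without a filter (0.735% and 0.266%, against 0.873%), and 0 to 2 when each library was left out (0.403% to 0.991%). In IL it (0) was 0 to 1 (0.261% to 1.70%). The interaction count was 0 in every setting tried, and pairing by mouse changed no call of the 10 genes other than those of *Ski* and, as a fixed block only, of *Smad4* in cKO. Without a filter, about 2 times as many genes were adjusted for.

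Signs turned only for changes close to 0 and never for a called gene. *Ski* between IL and CL in Ctrl was -0.0025 without further scaling. *Smad3* between the genotypes in CL was 0.052 with upper-quartile scaling, 0.015 with median-ratio scaling and 0.015 with mouse as random effect. With each library left out in turn, between IL and CL in Ctrl, *Smad7* ranged from -0.18 to 0.15, *Skil* from -0.16 to 0.0061 and *Ski* from -0.077 to 0.36. Between the genotypes in IL, *Tgfbr1* ranged from -0.054 to 0.22, *Smad3* from -0.34 to 0.19 and *Ski* from -0.022 to 0.28. In CL, *Tgfbr1* ranged from -0.0036 to 0.26 and *Smad3* from -0.27 to 0.19. For the interaction, *Nrros* ranged from -0.14 to 0.084, *Tgfbr1* from -0.26 to 0.081, *Tgfbr2* from -0.10 to 0.045, *Smad2* from -0.11 to 0.063 and *Smad3* from -0.36 to 0.19. No scaling moved the median change of all genes by 0.1 or more. The causes were not tested.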

Other observations

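Genes around each of the 10 on its chromosome were also looked up in the comparisons of cKO and Ctrl. Within 5 Mb of *Skil*, 3 of 43 genes tested (6.98%) were called in IL, against 0.656% of all genes. They were *Gnb4*, a G protein subunit (log2 fold change 2.78, limma adjusted p = 9.84e-05), *Gpr160* (-1.43, adjusted p = 0.00318) and *Mccc1*, a subunit of an enzyme of leucine breakdown (-0.70, adjusted p = 0.0399). In CL, *Gnb4* was called alone, with 3.35. *Skil* itself was called in neither hemisphere. These genes were named after their values were seen, and neighbours on a chromosome are not independent. Around the other 9 genes, none was called in IL. In CL, 1 gene was called within 5 Mb of each of *Tgfb1*, *Tgfbr1*, *Tgfbr2*, *Smad2*, *Smad3* and *Smad4* (0.538% to 3.12% of those tested), the gene near *Smad2* and *Smad4* being *Smad7*, and none near *Nrros*, *Smad7* and *Ski*.

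Between the 10 genes, the log2 values over the 14 libraries were most alike for *Smad7* and *Skil* (r = 0.813), *Tgfbr1* and *Tgfbr2* (r = 0.783) and *Tgfb1* and *Nrros* (r = 0.769), and least for *Tgfb1* and *Smad3* (r = -0.462). These values describe libraries that share mice, hemispheres and genotypes.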
